A study of Mus musculus with 9 samples.

Results

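PYS2 cells and XEN cells, a pair of mouse cell lines used as models of the extra-embryonic endoderm, were compared gene by gene on Illumina mouse bead arrays. The comparison took 6 of the 9 arrays of the study, 3 of PYS2 cells and 3 of XEN cells, and every probe that was present in either line. These were 14533 of 45281 probes, which stood for 8519 of the 19057 named genes on the array. The PYS2 line came from tumor cells of strain 129, and the XEN line came from ICR blastocysts. The labels name no treatment or altered gene in either line, and both were grown in high glucose DMEM with serum. The remaining 3 arrays held END2 cells, an endoderm-like line made from P19 embryonal carcinoma cells in another medium, and served here in the normalization, in the estimate of spread and as a shared reference for chromosome medians. Each line was 1 line from 1 strain, so line, strain and tumor or blastocyst origin cannot be told apart. Nothing in the labels says that the 3 arrays of a line came from separate cultures, so the p-values reflect only how far these 9 samples spread within their lines, END2 included, and that spread may be technical.

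The primitive endoderm of the blastocyst gives rise to the parietal endoderm (PE) and the visceral endoderm (VE). PE cells migrate along the trophoblast and secrete Reichert's membrane, a thick basement membrane built of laminin, type IV collagen, nidogen and heparan sulphate proteoglycan, and they make tissue plasminogen activator and thrombomodulin. VE cells form a polarized epithelium around the embryo, which takes up maternal protein through apical receptors and secretes lipoproteins and plasma proteins much as the fetal liver later does. The anterior visceral endoderm (AVE) secretes antagonists of Wnt and Nodal signals.

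Signals are given as normalized log2 values. A probe was detected on an array at a detection p-value under 0.01 and present in a line when 2 of its 3 arrays detected it, and a gene was represented by its brightest tested probe. A gene was called when the limma p-value of that probe, adjusted over all tested probes by the Benjamini-Hochberg method, was under 0.05. For a gene that a line showed on none of its arrays, the fold is given as "at least", computed against the higher of the probe's own signal and the lowest detected signal of each array. A gene detected on only some arrays of a line has no such bound. Its undetected arrays entered at their own signal, which can lie below the lowest detected signal. Folds with and without a bound are thus not strictly comparable. Levels of different probes cannot be set against each other, because probes differ in how they bind. Probe sequences were not at hand, so whether a probe matches the RNA of both strains equally well was not tested.

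PYS2 and XEN cells differed at a large share of the genes they express, with about as many genes higher in one line as in the other. Of 14533 probes, 6091 were called (41.9%). Of 8519 genes, 3759 were called, which is 44.1% of those tested, and 2018 of these were higher in PYS2 cells (23.7%) and 1741 were higher in XEN cells (20.4%). At least a 2-fold difference was called for 1505 genes (17.7%), of which 807 were higher in PYS2 cells (9.47%) and 698 in XEN cells (8.19%). Differences of at least 4 on the log2 scale were called for 21 genes higher in PYS2 cells and 25 genes higher in XEN cells. The median difference over all tested genes was 0.03 on the log2 scale. For 57.2% of the genes (4873), the lowest array of one line lay above the highest array of the other. Arrays of the same line lay 47.7 to 59.4 apart for PYS2 and 44.0 to 46.3 apart for XEN, as a Euclidean distance over tested probes, whereas arrays of different lines lay 122 to 135 apart. Most expressed genes were shared. Of the 8519 genes present in either line, 7296 (85.6%) were present in both, while 406 were present in PYS2 cells and detected on no XEN array, and 474 were present in XEN cells and detected on no PYS2 array. XEN replicate 2 had a brighter scan than the other arrays, with a median signal of 43.5 against 21.3 to 30.0, before normalization.

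Both lines carried the defining genes of the primitive endoderm. Gata4, a zinc finger factor of the endoderm, read 9.25, 8.53 and 8.99 on the PYS2 arrays and 9.14, 9.21 and 9.04 on the XEN arrays. Pdgfra, the receptor for platelet-derived growth factor that marks primitive endoderm, read 12.06, 11.94 and 11.78 in PYS2 cells and 12.00, 11.99 and 11.54 in XEN cells. These ranges overlapped, and neither gene was called (adjusted p = 0.419 and 0.844). The paper warns that a single Gata4 probe read high in END2 cells, which lacked Gata4 by quantitative PCR and staining. By those assays it found Gata4 in both PYS2 and XEN cells. Gata6, the partner of Gata4, read 11.73, 11.62 and 11.80 in PYS2 cells and 12.81, 12.98 and 12.82 in XEN cells, and was 2.22-fold higher in XEN cells (adjusted p = 0.000175). Sox7 was also higher in XEN cells, by 1.58-fold (adjusted p = 0.0327), while its relative Sox17 was 1.49-fold higher in PYS2 cells (adjusted p = 0.0189). Every array of one line lay above every array of the other for these 3 factors, but the calls of Sox7 and Sox17 were lost without any of several single arrays. For Sox7 these were PYS2 replicate 1 or 2 or XEN replicate 2 or 3 (adjusted p = 0.062 to 0.129, and a difference of -0.43 in place of -0.66 without PYS2 replicate 2), and for Sox17 they were replicate 1 of either line (adjusted p = 0.0643 and 0.0808). For the SOX7 protein, staining in the paper went the other way, marking PYS2 cells throughout but only a subset of XEN cells.

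Among the 20 genes with the greatest difference on each side, the fold ran from 16.6 to 373 for genes higher in PYS2 cells and from 17.6 to 299.7 for genes higher in XEN cells. Of the 20 genes higher in PYS2 cells, 5 were detected on no XEN array, and of the 20 higher in XEN cells, 11 were detected on no PYS2 array. Others were detected on all arrays of both lines, such as Ttr, Fbln1 and Rhox5 among those higher in PYS2 cells and Capn6 among those higher in XEN cells. Several probes were tested for 6 and 8 of these genes, and all of them were called in the same direction as the brightest probe.

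**Figure D1:**
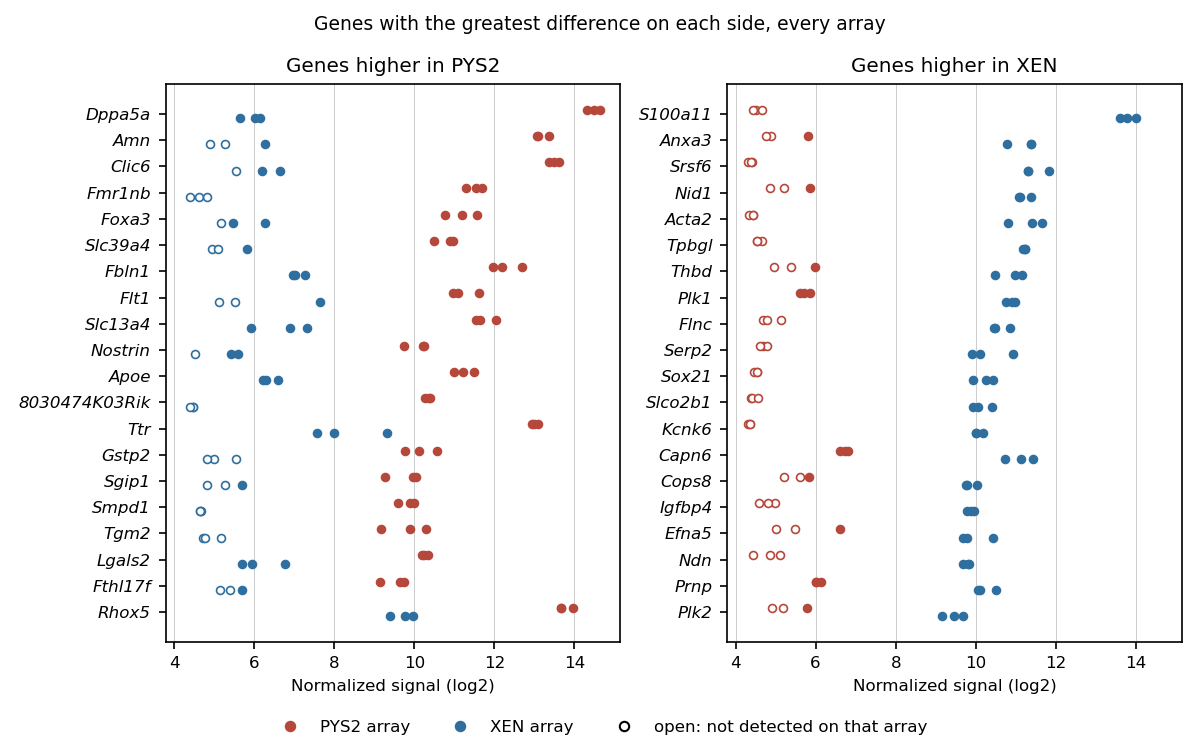
Normalized log2 signal on each of the 3 PYS2 arrays (red) and 3 XEN arrays (blue) for the 20 genes with the greatest difference on each side. Open symbols are arrays that did not detect the probe. In no gene did the arrays of the lines overlap, and 5 genes on the left and 11 on the right had only open symbols in the dimmer line.

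Dppa5a, an RNA-binding protein known from pluripotent cells, led the genes higher in PYS2 cells. It read 14.31, 14.49 and 14.63 on the PYS2 arrays and 5.64, 6.15 and 6.01 on the XEN arrays, a 373-fold difference (8.54 ± 0.18 SE on the log2 scale, adjusted p = 4.41e-11). Amn, or amnionless, which carries the receptor cubilin to the apical surface of VE cells, read 13.09, 13.05 and 13.35 in PYS2 cells and 6.28, 5.27 and 4.90 in XEN cells. Only 1 of the 3 XEN arrays detected it, and the difference was 206-fold (adjusted p = 4.97e-09). Clic6, a chloride intracellular channel protein, read 13.37, 13.60 and 13.49 in PYS2 cells against 6.20, 6.65 and 5.55 in XEN cells (164-fold). Foxa3, a forkhead factor of the endoderm and liver, was 46.7-fold higher in PYS2 cells, with 11.56, 10.77 and 11.20 on the PYS2 arrays and 6.27, 5.46 and 5.16 on the XEN arrays. Slc39a4, an apical zinc transporter of the gut and VE, was 45.2-fold higher, and Slc13a4, a sulphate transporter, was 32.5-fold higher. Flt1, a receptor for vascular endothelial growth factor, was 34.9-fold higher, and its XEN arrays were uneven, with 5.14, 7.65 and 5.52. The others on this side were Fmr1nb (at least 63.3-fold), the matrix protein Fbln1 (36.8-fold), Nostrin (29.7-fold), Apoe, 8030474K03Rik, Ttr, Gstp2, Sgip1, the acid sphingomyelinase Smpd1 (at least 19.8-fold), the transglutaminase Tgm2 (at least 19.2-fold), Lgals2, Fthl17f and the X-linked homeobox gene Rhox5 (16.6-fold).

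S100a11, a calcium-binding protein of the S100 family, led the genes higher in XEN cells. No PYS2 array detected it, with 4.51, 4.44 and 4.66, and the XEN arrays read 13.60, 14.01 and 13.78, which put XEN cells above PYS2 cells by at least 299.7-fold (adjusted p = 3.1e-11). The calcium-dependent membrane-binding protein Anxa3 was 64.8-fold higher, with 10.77, 11.37 and 11.37 in XEN cells and 1 detected PYS2 array of 3. Acta2, the actin of smooth muscle, read 10.81, 11.65 and 11.40 in XEN cells and was detected on no PYS2 array (at least 52.5-fold). The actin cross-linker Flnc followed the same pattern (at least 32.6-fold). Srsf6, a splicing factor, read 4.41, 4.31 and 4.37 in PYS2 cells and 11.31, 11.83 and 11.30 in XEN cells, a difference of at least 60.0-fold. Plk1, a mitotic kinase with 1 probe on the array, read 5.86, 5.70 and 5.62 in PYS2 cells and 10.90, 10.76 and 10.98 in XEN cells (35.6-fold). Whether the probes of Plk1, Srsf6 and Cops8, all dim in PYS2 cells, match the RNA of both strains equally well was not tested. Of 26 tested genes of mitosis and replication, 3 were higher in PYS2 cells and 4 were higher in XEN cells (2 without replicate 3 of either line), and Plk1 had the greatest difference of them, with the next at -1.02 (Tyms) and 1.12 (Gins1) on the log2 scale. Nid1 and Thbd, described with the matrix genes, were also among these 20, with Tpbgl, Serp2, Sox21, the transporter Slco2b1, the potassium channel Kcnk6, Capn6, Cops8, the growth factor binding protein Igfbp4 (at least 19.6-fold), the ligand Efna5, the imprinted gene Ndn, the prion protein Prnp and the kinase Plk2.

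**Figure D2:**
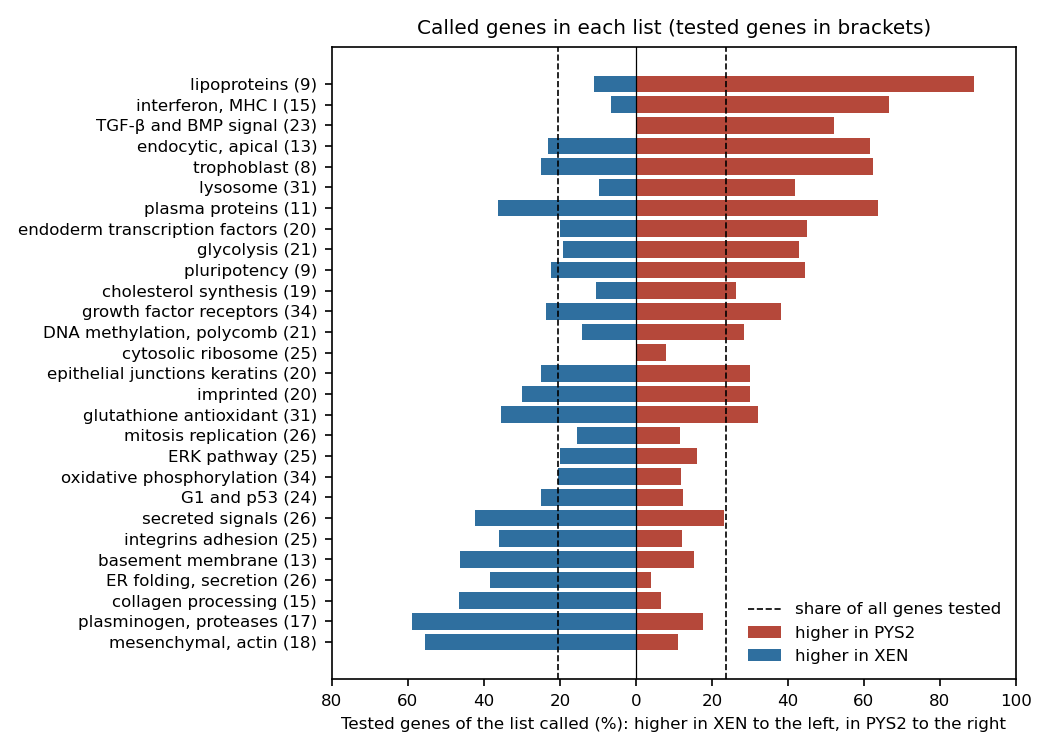
Share of the tested genes of each list that were called higher in PYS2 cells (red, to the right) or higher in XEN cells (blue, to the left), for lists with at least 8 tested genes. The dashed lines mark the shares over all tested genes, 23.7% higher in PYS2 cells and 20.4% higher in XEN cells. Lists of lipoproteins, interferon and plasma protein genes reached furthest to the right, and those of mesenchymal, plasminogen and collagen processing genes furthest to the left.

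Basement membrane genes were expressed in both lines, and those that differed were mostly higher in XEN cells. Of 13 tested genes, 6 were higher in XEN cells (8 without XEN replicate 3), 2 were higher in PYS2 cells and 5 were not called. Their median difference was -0.39 against 0.03 over all tested genes. For this and later lists, the shares over all tested genes were 23.7% higher in PYS2 cells and 20.4% in XEN cells. Nid1, or nidogen, which links laminin to type IV collagen, read 4.87, 5.20 and 5.87 in PYS2 cells and 11.38, 11.08 and 11.11 in XEN cells. Only PYS2 replicate 3 detected it, and it was 58.8-fold higher in XEN cells (adjusted p = 9.41e-09). Its relative Nid2 was 2.85-fold higher, the calcium-binding matrix protein Smoc1 12.6-fold and the proteoglycan Hspg2, or perlecan, 2.72-fold. Among the chains of laminin-111, Lamc1 was 1.81-fold higher in XEN cells (adjusted p = 0.00276), and Lamb1 read 8.75, 8.87 and 5.90 in PYS2 cells and 10.42, 10.45 and 10.06 in XEN cells. PYS2 replicate 3 lay far below the other arrays for Lamb1, and the call (5.54-fold, adjusted p = 0.00678) was made over a PYS2 spread of 1.68 SD. Without that array the difference was -1.50 in place of -2.47 on the log2 scale (adjusted p = 0.00121), and with no filter on dim probes the gene was not called. Lama1 was bright in both lines, with 13.43, 13.90 and 14.10 in PYS2 cells and 14.26, 14.46 and 13.87 in XEN cells, and was not called (adjusted p = 0.159). Col4a1 and Col4a2, the chains of type IV collagen, differed by -0.37 ± 0.22 and -0.35 ± 0.25 (SE, log2), and Sparc, a collagen-binding protein made in quantity by PE, by -0.20 ± 0.29. The arrays of the lines overlapped for all of these, and none was called. Without XEN replicate 3, however, Col4a1 and Col4a2 were called, higher in XEN cells. Against the direction of the others, the laminin chain Lama5 was 3.37-fold and agrin (Agrn) 2.20-fold higher in PYS2 cells.

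Enzymes that modify and fold collagen followed the same direction with smaller differences. Of 15 tested genes, 7 were higher in XEN cells, 1 was higher in PYS2 cells and 7 were not called, with a median of -0.50. The lysyl hydroxylases Plod1 and Plod2 were 2.85-fold and 2.38-fold higher in XEN cells, the prolyl hydroxylase P3h1 1.93-fold and the procollagen C-proteinase Bmp1 1.75-fold. Pcolce, which enhances that proteinase, was the exception. It read 7.59, 7.73 and 7.44 in PYS2 cells and was detected on no XEN array (at least 4.18-fold). Chaperones and transport proteins of the endoplasmic reticulum, which fold and move secreted proteins, had 10 of 26 tested genes higher in XEN cells, 1 higher in PYS2 cells (Dnajc3, 1.52-fold) and 15 not called, with a median of -0.55. Without PYS2 replicate 2, 3 were higher in PYS2 cells. The chaperones Hspa5 and Hsp90b1 were 2.58-fold and 2.32-fold higher in XEN cells, the translocon protein Ssr1 2.43-fold, and the coat protein Sec24d 2.24-fold.

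Genes of the plasminogen system and its inhibitors were mostly higher in XEN cells as well. Of 17 tested, 10 were higher in XEN cells, 3 were higher in PYS2 cells and 4 were not called, with a median of -1.62 (-1.15 with genes undetected in a line at their bound). Thbd, or thrombomodulin, the thrombin receptor of PE cells, read 5.99, 4.95 and 5.38 in PYS2 cells and 10.47, 11.15 and 10.97 in XEN cells, a 43.0-fold difference. Plat, the tissue plasminogen activator, read 10.70, 10.67 and 10.74 in PYS2 cells and 11.92, 12.06 and 11.57 in XEN cells. All arrays detected Plat and the lines did not overlap, but its difference was only 2.21-fold (adjusted p = 0.0018). In the paper, array and quantitative PCR values of Plat had the same basic trend but correlated poorly. It names the PCR or the array probe as a possible reason. The urokinase receptor Plaur was 3.89-fold higher in XEN cells, and the subunits of the plasminogen-binding annexin complex, Anxa2 and S100a10, were 3.27-fold and 5.23-fold higher. Inhibitors were higher in XEN cells too. The metalloproteinase inhibitor Timp2 was 8.16-fold higher in XEN cells, the tissue factor pathway inhibitor Tfpi 4.78-fold, and the membrane serine proteinase inhibitor Spint1, which no PYS2 array detected, at least 6.62-fold. The 3 genes higher in PYS2 cells were the cathepsins Ctsc (at least 1.47-fold) and Ctsl (1.62-fold) and the membrane metalloproteinase Mmp14 (2.66-fold). The call of Mmp14 was lost without replicate 3 of either line (adjusted p = 0.0514 and 0.054), and that of Ctsl without PYS2 replicate 2 or 3 or XEN replicate 1 or 3 (0.0576 to 0.0735), which leaves 1 such gene without XEN replicate 3.

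**Figure D3:**
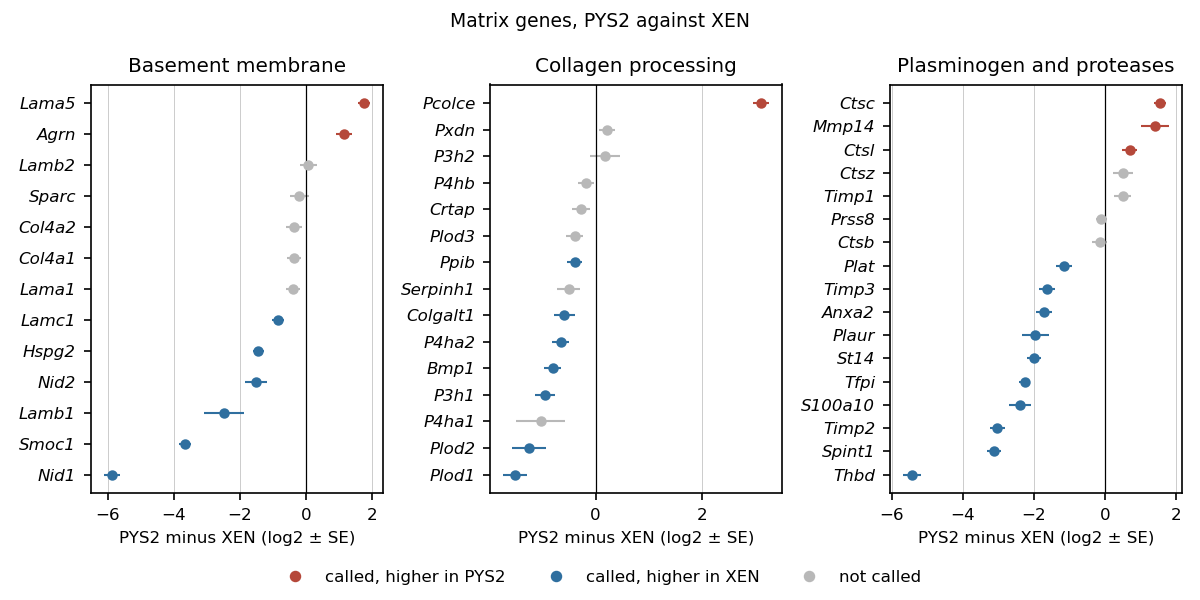
Difference between PYS2 and XEN cells (log2, points) with its standard error (lines) for the tested genes of basement membrane, collagen processing and the plasminogen system, where red and blue points were called and grey points were not. For genes that no array of one line detected, such as Spint1 and Pcolce, the point is the fitted difference and the bound in the text is smaller. Type IV collagen chains, Lama1 and Sparc lay near 0, and Nid1 and Thbd lay beyond -5.

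Genes of the VE showed the opposite direction. Of 13 tested genes of the endocytic and apical apparatus, 8 were higher in PYS2 cells, 3 were higher in XEN cells and 2 were not called, with a median of 0.98. Besides Amn and Clic6, they included the adaptor Dab2, needed for endocytosis in the VE, which read 13.49, 13.64 and 13.76 in PYS2 cells and 12.52, 12.23 and 12.02 in XEN cells (2.59-fold, adjusted p = 0.000125). Cubn, the endocytic receptor that pairs with Amn, differed far less than its partner. It read 9.01, 8.59 and 9.07 in PYS2 cells and 8.35, 8.30 and 7.08 in XEN cells, 1.97-fold higher in PYS2 cells (adjusted p = 0.0193), a call that was lost without PYS2 replicate 1 or 3 (adjusted p = 0.0559 and 0.0715). Without XEN replicate 3, the dimmest array, the difference was 0.57 in place of 0.98 on the log2 scale. Lrp2, or megalin, which works with cubilin, read 11.52, 11.03 and 10.50 in PYS2 cells and 11.53, 11.68 and 11.24 in XEN cells and was not called (adjusted p = 0.25). Habp2, a secreted serine protease that binds hyaluronan, was 6.60-fold higher in PYS2 cells. The scaffold protein Pdzk1 (7.29-fold), the lipid transporter Mfsd2a (5.37-fold) and the megalin chaperone Lrpap1 (1.48-fold, adjusted p = 0.0434) were higher in XEN cells, although Lrpap1 was not called without PYS2 replicate 1 or 3 or any 1 XEN array (adjusted p = 0.0505 to 0.142).

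Lipoprotein genes were higher in PYS2 cells almost without exception. Of 9 tested, 8 were higher in PYS2 cells and 1, the phospholipid transfer protein Pltp, was higher in XEN cells (at least 1.25-fold, adjusted p = 0.0405), with a median of 2.32 (1.59 at the bounds). Pltp was not called without PYS2 replicate 1 or 2 or XEN replicate 2 or 3 (adjusted p = 0.0677 to 0.152). Another 12 of the 21 genes of this list on the array were detected on no array of either line. Apoe read 11.24 ± 0.246 (SD, n = 3) in PYS2 cells and 6.59, 6.30 and 6.22 in XEN cells (29.2-fold, adjusted p = 1.19e-06). Apoa1 and Apoa4, the apolipoproteins of high density particles and chylomicrons, were dim even in PYS2 cells, where they read 6.05 to 6.52 and 6.47 to 6.82, and no XEN array detected either (at least 1.67-fold and 2.22-fold). Apom was 5.35-fold higher in PYS2 cells, Mttp, which loads lipid onto apolipoprotein B, 3.01-fold, and Dgat2, which makes triglyceride, 8.38-fold. The brightest Apoa2 probe was 12.2-fold higher in PYS2 cells (adjusted p = 3.19e-07), but a dimmer probe of the same gene differed by -1.14 on the log2 scale (adjusted p = 7.55e-05), so the direction of Apoa2 depends on the probe.

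Secreted plasma proteins were split between the lines. Of 11 tested, 7 were higher in PYS2 cells and 4 were higher in XEN cells, and the median was 1.43, or 0.33 with undetected genes at their bound. These counts rest on single arrays. Without PYS2 replicate 2, 4 were higher in PYS2 cells, and without XEN replicate 1, 2 or 3, the number higher in XEN cells was 2, 1 and 2. Ttr, transthyretin, the thyroid hormone carrier used as a VE marker, read 12.94, 13.08 and 12.98 in PYS2 cells and 9.32, 7.99 and 7.57 in XEN cells (26.1-fold, adjusted p = 7.77e-07). All 6 arrays detected Ttr, and the XEN arrays varied more among themselves than the PYS2 arrays. The coagulation factors F10 and F2 were detected on all 3 PYS2 arrays and on no XEN array (at least 6.03-fold and 4.73-fold), as was Ambp (at least 1.78-fold). Rbp4, the retinol carrier, and Ahsg, or fetuin, went the other way, with 2 and 3 detected XEN arrays and no detected PYS2 array (at least 1.45-fold and 2.48-fold). Afp and Vil1, other markers of VE, were detected on no PYS2 or XEN array, although the paper reports Afp in PYS2 cells by quantitative PCR.

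Transcription factors of the extra-embryonic endoderm and liver were more often higher in PYS2 cells. Of 20 tested, 9 were higher in PYS2 cells, 4 were higher in XEN cells and 7 were not called, with a median of 0.36. Besides Foxa3, they included Cited1, a transcriptional co-activator, which read 12.68, 12.87 and 13.02 in PYS2 cells and 9.88, 9.44 and 8.74 in XEN cells (11.4-fold). Hnf4a, the nuclear receptor that drives liver and VE genes, read 9.45, 9.31 and 9.81 in PYS2 cells and 8.03, 7.75 and 7.42 in XEN cells (3.46-fold, adjusted p = 2.35e-05). Its values did not overlap between the lines, while those of Foxa2 did, with 8.64, 8.69 and 8.51 in PYS2 cells and 8.57, 8.99 and 8.62 in XEN cells (adjusted p = 0.693). The paper, by contrast, reports Foxa2 by quantitative PCR in PYS2 cells only. The epithelial factor Elf3 was 7.26-fold and Cebpb, a factor of liver and acute phase genes, 2.87-fold higher in PYS2 cells. Cited2 was 1.95-fold higher in XEN cells, and Tfec 2.03-fold (adjusted p = 0.0149), with overlapping arrays and no call without PYS2 replicate 3 or XEN replicate 1 (adjusted p = 0.0613 and 0.0636). Of the AVE genes, 4 of 16 on the array were tested. Hhex, a homeobox factor, read 10.48, 10.63 and 10.73 in PYS2 cells and 8.27, 8.42 and 8.28 in XEN cells (4.89-fold). Dkk1, the Wnt antagonist, was 8.03-fold higher in PYS2 cells, and Lefty1, the Nodal antagonist, was detected in PYS2 cells only (at least 1.65-fold). Cer1, another antagonist of the AVE, was detected on no array of either line, and the Wnt receptor Fzd5 was higher in XEN cells with overlapping arrays and no call without PYS2 replicate 1 or 2 or XEN replicate 2 or 3 (adjusted p = 0.0592 to 0.0796).

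**Figure D4:**
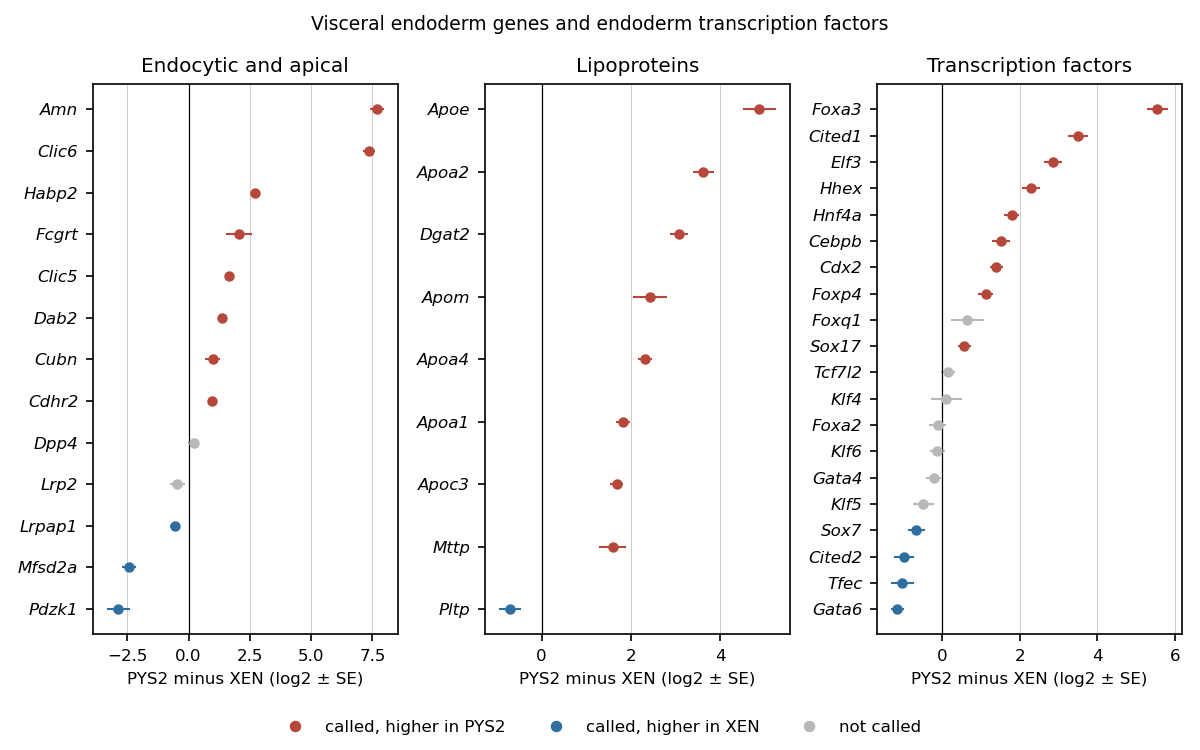
Difference between PYS2 and XEN cells (log2, points) with its standard error (lines) for endocytic and apical genes, lipoprotein genes and endoderm transcription factors. Red and blue points were called and grey points were not, and for genes that no array of one line detected the point is the fitted difference, above the bound in the text. Of the lipoprotein genes only Pltp lay on the XEN side, and Gata4, Foxa2 and Lrp2 lay near 0.

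A panel of known endoderm markers was also followed, with 34 of 35 genes on the array and 28 tested. It was chosen by the study on these lines and is no independent evidence. In it 11 genes were higher in PYS2 cells, 7 were higher in XEN cells and 10 were not called, with a median of 0.16. Besides those above, Krt19, a keratin of PE and other epithelia, read 7.20, 6.56 and 6.85 in PYS2 cells and was detected on no XEN array (at least 2.54-fold). On the arrays it thus went against Thbd, Plat and Lamb1, although the paper reports Krt19 in XEN cells too by quantitative PCR. Emb, a cell adhesion protein of the endoderm, was 3.25-fold, the phospholipid-binding protein Anxa4 1.99-fold and the proteoglycan Sdc4 1.62-fold higher in PYS2 cells. A further Anxa4 probe, which became the brighter when any 1 XEN array was left out, differed by 3.56 to 4.04 on the log2 scale, against 0.99. Sdc4 was not called without PYS2 replicate 2 or 3 or XEN replicate 1 (adjusted p = 0.0521 to 0.0582). Gpc1, a cell surface heparan sulphate proteoglycan, read 4.39, 4.34 and 4.43 in PYS2 cells and 9.09, 9.15 and 8.75 in XEN cells, a difference of at least 10.7-fold. The paper lists Gpc1 as a marker of definitive endoderm, the layer that forms most of the gut. It reports no expression in any of its lines, unlike the XEN arrays here. The parathyroid hormone receptor Pth1r (1.74-fold) and the kinase Ripk4 (1.43-fold, adjusted p = 0.0482) were also higher in XEN cells, but Ripk4 was not called without PYS2 replicate 2 or 3 or any 1 XEN array (adjusted p = 0.0898 to 0.16). Spink1, Rab15, Fxyd3, Emp2, Dsg2 and the adaptor Grb2 were not called, with differences from -0.42 to 0.34. Without PYS2 replicate 3, Spink1 was called, higher in PYS2 cells. Bmp2, Cxcr4 and Plau, like Afp, Cer1 and Vil1, were detected on no PYS2 or XEN array. By quantitative PCR, the paper reports Bmp2 and Plau in both lines and Afp in PYS2 cells. A lack of detection on the array thus does not show that these RNAs were absent.

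Genes of mesenchymal cells and of the contractile apparatus were mostly higher in XEN cells. Of 18 tested, 10 were higher in XEN cells, 2 were higher in PYS2 cells and 6 were not called, with a median of -1.01 (-0.73 at the bounds). Behind Acta2 came Snai1, the repressor of E-cadherin, which read 6.33, 5.79 and 5.90 in PYS2 cells and 8.56, 8.16 and 8.58 in XEN cells (5.38-fold). Vim, the intermediate filament vimentin, was 3.13-fold, the actin-binding protein Cnn2 3.98-fold and the actin cross-linker Flna 2.32-fold higher in XEN cells. Myl9, a myosin light chain, was the main exception, 11.8-fold higher in PYS2 cells, with 8.90, 9.88 and 9.33 against a mean of 5.81. Epithelial junction genes and keratins had 6 of 20 higher in PYS2 cells and 5 higher in XEN cells (3 without XEN replicate 1). Over all tested genes the shares were 23.7% and 20.4%. Cdh1, or E-cadherin, read 8.24, 8.87 and 8.51 in PYS2 cells and 5.46, 6.32 and 5.84 in XEN cells (6.34-fold), and the tight junction proteins Cldn12 and Ocln were detected in PYS2 cells only (at least 13.5-fold and 2.44-fold). In the opposite direction, Pkp2 of desmosomes was 10.1-fold and the junction protein F11r 2.97-fold higher in XEN cells. Integrins and other adhesion proteins had 9 of 25 genes higher in XEN cells and 3 in PYS2 cells (5 without PYS2 replicate 1). Integrin subunits Itgb5 (4.12-fold) and Itga6 (at least 1.99-fold) and the glypicans Gpc4 (at least 3.02-fold) and Gpc3 (at least 2.66-fold) were higher in XEN cells, whereas the laminin receptor Bcam (at least 5.02-fold) was higher in PYS2 cells.

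The markers of fibroblasts share Acta2 and Vim with the mesenchymal genes, so they are not a separate observation. Their summed normalized signal, on a linear scale, ran from 1915 to 2091 in PYS2 cells and from 6698 to 8596 in XEN cells (1570 to 2339 and 5582 to 13074 before normalization), with 14 of 22 markers detected on no array of either line, among them the defining genes Col1a1, Col1a2 and Thy1. Of the 7 markers tested, 3 were higher in XEN cells (Acta2, Vim and the matrix protein Fbln2, at least 16.8-fold) and 1 was higher in PYS2 cells (Col6a1, at least 4.11-fold, with uneven PYS2 arrays of 5.84, 7.98 and 8.86). Without PYS2 replicate 1, 2 were higher in PYS2 cells. For pluripotent cells, 4 of 9 tested markers were higher in PYS2 cells, 2 were higher in XEN cells and 3 were not called. The transcription factor Tfcp2l1 (2.39-fold) was on the PYS2 side, and the RNA-binding protein Lin28a (2.14-fold) and the chromatin protein Utf1 (at least 1.49-fold) were on the XEN side. The summed normalized signal was 30264 to 33160 in PYS2 cells and 8185 to 9694 in XEN cells. Without Dppa5a it was 7793 to 9968 and 8135 to 9623, so that the arrays of the lines overlapped. The defining genes Pou5f1 and Nanog were detected on no array of either line. Of the 8 tested trophoblast markers, 5 were higher in PYS2 cells, among them Gata2 (at least 6.14-fold), the placental gene Plac1 (6.07-fold) and Cdx2 (at least 1.43-fold). Another 2 were higher in XEN cells, the homeobox gene Rhox6 (at least 1.98-fold) and the keratin Krt7 (1.69-fold, adjusted p = 0.0462), and 1 was not called. Krt7 was not called without replicate 1 or 3 of either line (adjusted p = 0.0508 to 0.174), and without PYS2 replicate 3 its difference was -0.42 in place of -0.76. The summed normalized signal of trophoblast markers was 3677 to 4234 in PYS2 cells and 2401 to 3035 in XEN cells, and the defining marker Elf5 was detected on no array. On these bulk arrays, a change in the number of cells of one type and a change in RNA per cell cannot be told apart.

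A group of genes known from other cells as targets of the co-activator YAP and its DNA-binding partners, the TEAD factors, lay among the genes higher in XEN cells. They were singled out after their values were seen. Ccn2, a secreted matricellular protein, read 13.22, 11.52 and 12.29 in PYS2 cells and 14.50, 14.68 and 14.50 in XEN cells (4.66-fold, adjusted p = 0.000619). Ccn1, of the same family, was 3.88-fold higher, Ankrd1, an ankyrin repeat protein, 4.63-fold, and Amotl2, an angiomotin that binds YAP, 4.10-fold. None of the 4 genes overlapped between the lines, which also held for 57.2% of all tested genes. The PYS2 arrays of Ccn2 were the most uneven. No upstream window was at hand for Ccn2, so it was not searched. The 250 bases before the annotated start of the other 3 genes are shown because all 3 contain CATTCC, the core letters that TEAD factors bind, on one strand or the other. They come from RefSeq in the GRCm38.p6 build, at chr3:145649986-145650235 (minus strand) for Ccn1, chr19:36119845-36120094 (minus strand) for Ankrd1 and chr9:102717554-102717803 (plus strand) for Amotl2. Capitals mark CATTCC or its reverse complement GGAATG. Among 32851 windows of the same length, 12.6% hold these letters, and a match is a description of the sequence only.
Ccn1: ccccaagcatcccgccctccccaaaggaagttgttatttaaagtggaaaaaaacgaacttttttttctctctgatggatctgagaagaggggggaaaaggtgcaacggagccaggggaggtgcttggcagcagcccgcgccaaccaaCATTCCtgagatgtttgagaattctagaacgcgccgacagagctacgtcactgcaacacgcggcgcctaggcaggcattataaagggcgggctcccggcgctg
Ankrd1: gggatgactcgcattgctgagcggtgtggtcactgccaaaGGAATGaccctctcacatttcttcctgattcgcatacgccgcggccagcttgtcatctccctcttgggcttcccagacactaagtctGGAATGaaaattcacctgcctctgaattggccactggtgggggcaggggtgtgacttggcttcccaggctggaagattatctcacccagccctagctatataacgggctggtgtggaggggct
Amotl2: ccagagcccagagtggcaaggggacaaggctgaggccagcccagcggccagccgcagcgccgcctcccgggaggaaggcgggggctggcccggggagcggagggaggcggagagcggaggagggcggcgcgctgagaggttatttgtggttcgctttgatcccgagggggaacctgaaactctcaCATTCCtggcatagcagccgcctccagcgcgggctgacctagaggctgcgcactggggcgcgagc
The Ccn1 and Amotl2 windows hold 1 match each, 103 and 65 bases before the start, and the Ankrd1 window holds 2, at 210 and 123 bases.

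Interferon-induced genes and the class I MHC pathway were higher in PYS2 cells. Of 15 tested, 10 were higher in PYS2 cells, 1 was higher in XEN cells and 4 were not called, with a median of 1.90 (1.51 at the bounds). Ifitm1, a membrane protein that restricts viral entry, read 10.23, 9.02 and 9.80 in PYS2 cells and 5.04, 5.81 and 6.27 in XEN cells (15.8-fold, adjusted p = 3.44e-06), and its paralogs Ifitm2 and Ifitm3 were 12.3-fold and at least 2.85-fold higher. Probes of such close paralogs may share signal. Usp18, a protease that removes the ubiquitin-like ISG15, read 8.12, 8.67 and 8.09 in PYS2 cells and was detected on no XEN array (at least 6.83-fold). Bst2, or tetherin, read 9.59, 9.88 and 9.97 in PYS2 cells and 6.69, 6.82 and 6.62 in XEN cells (8.57-fold). The transducers of the interferon signal were included, with Stat2 at least 2.34-fold, Irf9 3.74-fold and Irf1 3.49-fold higher. B2m, the light chain of class I MHC, was 2.98-fold and its loading factor Tapbp at least 2.51-fold higher. The heavy chain gene H2-K1 gave no single direction. Its brightest probe was higher in XEN cells, with a mean of 7.91 against 5.15 in PYS2 cells, and a further probe was higher in PYS2 cells, with a mean of 8.34 against 4.51 in XEN cells. That probe became the brighter when any 1 XEN array was left out, and the difference was then 3.78 to 3.95.

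Upstream windows of the 10 interferon list members higher in PYS2 cells were searched for GAAANNGAAA on both strands, the letters shared by elements that interferon regulatory factors bind. Windows were at hand for 9 of the 10, and 4 of the 9 held it, against 2.98% of all 32851 windows. The list was made of genes known for interferon response or class I MHC, and its other members were not searched. The share therefore says nothing about the difference between the lines, and a match is a description of the sequence only. The 4 windows with a match are shown so that the element can be seen beside the values above, with the match or its reverse complement in capitals. In GRCm38.p6 they lie at chr2:122147437-122147686 (plus strand) for B2m, chr8:71537473-71537722 (minus strand) for Bst2, chr7:140955962-140956211 (minus strand) for Ifitm2 and chr10:128270248-128270497 (plus strand) for Stat2.
B2m: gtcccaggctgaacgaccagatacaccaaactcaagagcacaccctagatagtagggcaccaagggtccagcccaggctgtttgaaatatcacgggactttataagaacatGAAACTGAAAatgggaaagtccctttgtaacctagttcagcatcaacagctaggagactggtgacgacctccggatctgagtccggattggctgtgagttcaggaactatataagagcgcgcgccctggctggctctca
Bst2: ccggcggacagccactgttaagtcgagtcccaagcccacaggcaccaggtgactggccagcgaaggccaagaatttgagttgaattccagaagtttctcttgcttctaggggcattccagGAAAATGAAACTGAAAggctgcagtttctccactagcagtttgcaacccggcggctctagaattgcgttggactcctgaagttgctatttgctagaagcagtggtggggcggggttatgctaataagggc
Ifitm2: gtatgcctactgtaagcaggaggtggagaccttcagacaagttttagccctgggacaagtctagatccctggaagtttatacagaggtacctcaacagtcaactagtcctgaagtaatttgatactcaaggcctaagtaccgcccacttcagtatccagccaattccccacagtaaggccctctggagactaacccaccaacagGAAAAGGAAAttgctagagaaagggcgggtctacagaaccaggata
Stat2: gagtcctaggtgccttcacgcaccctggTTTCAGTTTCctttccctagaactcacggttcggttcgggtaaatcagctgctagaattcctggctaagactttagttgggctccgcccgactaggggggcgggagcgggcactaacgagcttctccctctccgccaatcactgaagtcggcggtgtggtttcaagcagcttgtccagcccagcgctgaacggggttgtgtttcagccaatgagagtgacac
In the Bst2 window 2 matches overlap each other, 130 and 124 bases before the start. The windows of Ifitm1, Ifitm3, Irf1, Irf9 and Tapbp did not hold these letters, and nothing about the factors follows from that.

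Components of TGF-β and BMP signalling were higher in PYS2 cells or not called. Of 23 tested, 12 were higher in PYS2 cells, 0 were higher in XEN cells and 11 were not called, with a median of 0.50. Without PYS2 replicate 3, 1 was higher in XEN cells. The largest differences lay in the targets. Id1, a helix-loop-helix inhibitor induced by BMP, read 10.78, 9.67 and 10.61 in PYS2 cells and 8.40, 7.21 and 6.52 in XEN cells (7.88-fold, adjusted p = 0.00017), and Id3 was 2.82-fold higher. The BMP transducer Smad1 was 2.14-fold and the TGF-β transducer Smad3 1.78-fold higher, and the kinase Mapk8, or JNK1, 2.18-fold. The ligands Tgfb1 (at least 2.08-fold) and Bmp4 (at least 1.13-fold) were detected in PYS2 cells only. Nog, or noggin, a secreted BMP antagonist counted with the secreted signals, read 4.48, 4.39 and 4.46 in PYS2 cells, where no array detected it, and 8.41, 8.57 and 8.73 in XEN cells (at least 7.98-fold). Chrd, or chordin, another such antagonist, was also higher in XEN cells, with no call without PYS2 replicate 1 or XEN replicate 2 (adjusted p = 0.0536 and 0.0516) or with the authors' values, and the follistatin-like protein Fstl1 was at least 10.1-fold higher.

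The secreted signals that were called were more often higher in XEN cells. Among 26 tested ligands and antagonists, Nog included, 11 were higher in XEN cells, 6 were higher in PYS2 cells and 9 were not called. The median of -0.01 (0.04 at the bounds) lay near the 0.03 over all tested genes. Wnt7b read 6.62, 6.24 and 6.49 in PYS2 cells and 9.58, 9.30 and 10.64 in XEN cells (10.5-fold), and Wnt4 was 2.99-fold higher in XEN cells. Fibroblast growth factors Fgf10 and Fgf3 were detected in XEN cells only (at least 4.20-fold and 2.83-fold). Of 34 tested receptors, 13 were higher in PYS2 cells and 8 were higher in XEN cells (5 without PYS2 replicate 2 and 4 without XEN replicate 2). Over all tested genes, 23.7% were higher in PYS2 cells and 20.4% in XEN cells, so the XEN count was near its share. The Wnt receptors Fzd3 (at least 2.51-fold) and Fzd2 (at least 1.61-fold) and the hedgehog receptor Ptch1 (2.31-fold) were higher in PYS2 cells, while the Wnt co-receptor Lrp6 (at least 1.44-fold) was higher in XEN cells. Lysosomal genes had 13 of 31 higher in PYS2 cells and 3 higher in XEN cells. The hexosaminidase subunit Hexa was 8.80-fold higher in PYS2 cells, the glucuronidase Gusb 3.48-fold and the neuraminidase Neu1 2.93-fold, while the lysosomal membrane protein Scarb2 was 4.85-fold higher in XEN cells.

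Imprinted genes, which are expressed from 1 parental allele, were divided evenly, with 6 of 20 higher in PYS2 cells, 6 higher in XEN cells and 8 not called. Cdkn1c, an inhibitor of cyclin-dependent kinases, read 8.95, 9.71 and 9.68 in PYS2 cells and was detected on no XEN array (at least 15.1-fold). Peg3, a zinc finger gene, was 7.50-fold and Peg10, a retrotransposon-derived gene, 4.86-fold higher in PYS2 cells. Igf2, the fetal growth factor, read 5.12, 5.83 and 6.01 in PYS2 cells and 8.93, 9.14 and 8.80 in XEN cells (9.84-fold), and its clearance receptor Igf2r was 2.09-fold higher in PYS2 cells. Ndn, which encodes necdin, was detected in XEN cells only, at 9.82, 9.81 and 9.69 (at least 18.4-fold). Phlda2 and Sfmbt2, both imprinted in the placenta, were at least 1.44-fold and 2.09-fold higher in XEN cells. Xist, the RNA that silences an X chromosome in female cells, was detected on all 3 XEN arrays, at 8.63, 10.10 and 8.89, and on no PYS2 array (at least 12.4-fold), and all 4 of its probes were called in that direction. The Y-linked genes Eif2s3y, Kdm5d and Uty were detected on no array of either line.

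Of 25 tested genes of the cytosolic ribosome, 2 were higher in PYS2 cells (Rpl22 and Rpl14), 0 were higher in XEN cells and 23 were not called, with a median of 0.00. With single arrays left out, 0 to 2 of these genes were called. The calls were lost without PYS2 replicate 2 or 3 or XEN replicate 2 or 3 for Rpl22 (adjusted p = 0.064 to 0.137) and without XEN replicate 1 for Rpl14 (0.0909). Of 34 genes of oxidative phosphorylation, 4 were higher in PYS2 cells and 7 in XEN cells, and 23 were not called. The 32.4% called lay below the 44.1% over all genes, and the XEN count was near the 20.4% of all genes. These counts fell to between 0 and 2 higher in PYS2 cells without any 1 PYS2 array or XEN replicate 2 or 3, and to 3 or 4 higher in XEN cells without PYS2 replicate 1 or 3 or XEN replicate 1 or 2. Glycolysis genes had 9 of 21 higher in PYS2 cells, among them the aldolase Aldoc (6.47-fold) and the glucose transporter Slc2a3 (1.98-fold), and 4 higher in XEN cells, among them the pyruvate kinase Pkm (2.26-fold), so that 61.9% were called against 44.1% over all genes. Without PYS2 replicate 3 or XEN replicate 3, 4 and 5 glycolysis genes were higher in PYS2 cells, and without XEN replicate 2, 2 were higher in XEN cells. Genes of glutathione and antioxidant enzymes had 10 of 31 higher in PYS2 cells and 11 higher in XEN cells (67.7% called), and related genes went opposite ways. Without PYS2 replicate 2, 7 were higher in XEN cells. The metallothionein Mt2 (at least 3.93-fold) and the transferase Gstm1 (4.68-fold) were higher in PYS2 cells, and the peroxidase Gpx3 (at least 8.21-fold) and the transferase Gsta1 (at least 2.29-fold) were higher in XEN cells.

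The share of called genes differed between chromosomes. Chromosome assignments came from the RefSeq annotation of GRCm38.p6. On chromosome 15, 43.0% of 344 tested genes were higher in PYS2 cells and 10.2% were higher in XEN cells, with a median difference of 0.36. On chromosome 16 the shares were turned, with 28 of 279 genes higher in PYS2 cells and 105 (37.6%) higher in XEN cells, and a median of -0.32. Over all tested genes the shares were 23.7% and 20.4%. Chromosomes 17 and 18 leaned toward PYS2 cells (medians of 0.22 and 0.33) and chromosomes 3 and 12 toward XEN cells (both -0.22). The shift ran along the whole of chromosomes 15 and 16. In 4 blocks of equal gene number in chromosomal order, the medians were 0.28, 0.67, 0.19 and 0.37 on chromosome 15 and -0.31, -0.48, -0.29 and -0.31 on chromosome 16. The growth regulator Myc opened the second block of chromosome 15 and was 1.63-fold higher in PYS2 cells (adjusted p = 0.0213), though it was not called without replicate 3 of either line (0.08 and 0.0922). On chromosome 14 the blocks went opposite ways, with medians of -0.31, 0.46, 0.52 and -0.63, although the median of the whole was -0.09. On chromosome 2, the second block, from Rbm18 to Spint1, had a median of -0.57, with 48.5% of its genes higher in XEN cells.

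The same lean was present on each array and with other values. Relative to the mean of each gene over the 6 arrays, the median over chromosome 15 was 0.22, 0.17 and 0.23 on the PYS2 arrays and -0.17, -0.24 and -0.15 on the XEN arrays. For chromosome 16 it was -0.17, -0.18 and -0.13 on the PYS2 arrays and 0.17, 0.16 and 0.18 on the XEN arrays. With the authors' normalized values the medians were 0.23 and -0.20, and with no normalization between arrays 0.29 and -0.37. Against the END2 arrays, which both lines share as a reference, the medians on chromosome 15 were 0.27 in PYS2 cells and -0.13 in XEN cells, and on chromosome 16 they were 0.21 and 0.55. Genes of 1 chromosome are not independent replicates, so these are descriptions without a test. Whether the lines differ in chromosome number was not tested.

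**Figure D5:**
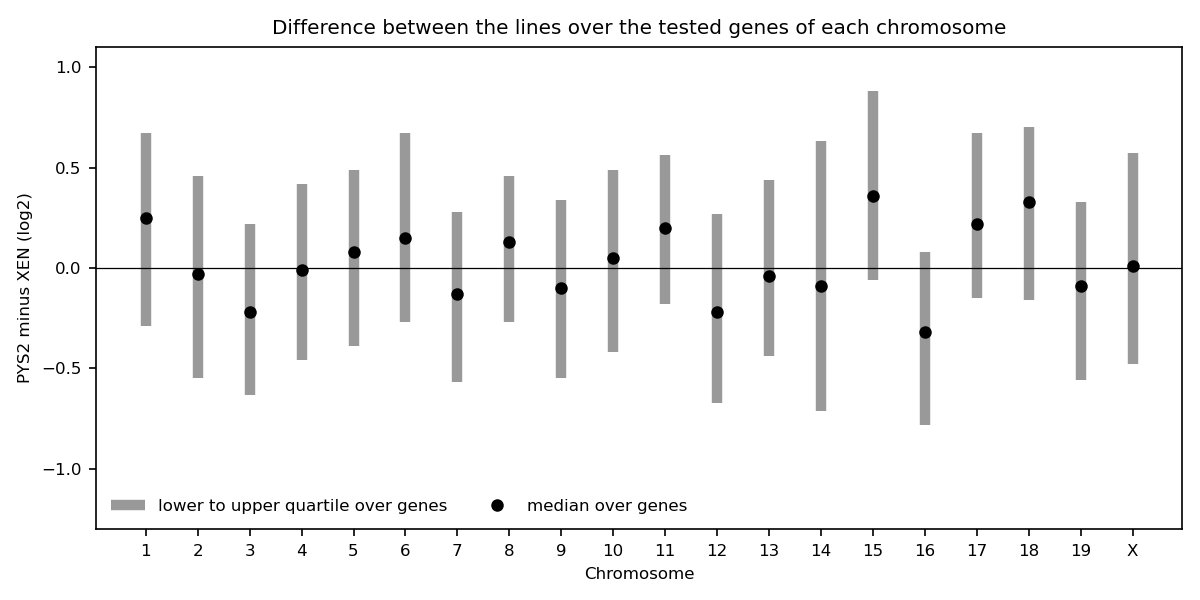
Difference between PYS2 and XEN cells (log2) over the tested genes of each chromosome, with the median as a point and the lower to upper quartile as a bar. Chromosome 15 had the highest median, 0.36, and chromosome 16 the lowest, -0.32, while the X chromosome lay at 0.01.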

How the data were processed

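Total RNA of 3 PYS2, 3 XEN and 3 END2 samples was hybridized to single-colour mouse bead arrays and scanned with BeadStudio. In the scanner table that the authors deposited, each probe has an intensity on a linear scale and a detection score given as a fraction from 0 to 1. Because scores rose with signal, the detection p-value was computed as 1 minus the score. The authors' second table holds log2 values normalized with lumiExpresso, a function of the lumi package whose version is not stated here, and served as an alternative. A further 24 columns of 3 other arrays in the scanner table were not used.

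Signals of all 9 arrays were background corrected and quantile normalized with neqc (offset of 16) in limma 3.58.1 under R 4.3.3. One linear model over the 9 arrays without covariates gave PYS2 minus XEN with moderated tests (lmFit and eBayes), and p-values were adjusted by the Benjamini-Hochberg method over all tested features. The test was checked on simulated data. Of 45281 probes, 34885 carried 1 gene symbol in the platform annotation, while 18 carried several and 10378 carried no symbol. Of the single symbols, 34807 matched RefSeq genes of GRCm38.p6. Probes carry no coordinates, since the sources used here name no genome build for the arrays. Chromosomes, gene order and upstream windows are those of the matched RefSeq genes. No sequencing depth applies, and precision is limited by how many arrays there are.

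The text names the 20 genes with the greatest difference on each side among called genes with arrays that do not overlap, up to 4 called genes of each of 39 gene lists, the study's marker panel, defining list members that were not called, and a few genes chosen after their values were seen (the YAP targets, Myc, Chrd and other called members needed to describe a list). The members and lists were chosen with earlier results of these data known. Samples of the same replicate number did not deviate together, so the numbers were not used as pairs. Alternatives were the authors' values, signals without background correction or without normalization, cyclic loess, the 6 arrays alone, other filters on dim probes, a replicate block, array weights, a trended spread, the mean of a gene's probes, a stricter threshold, and each array left out in turn.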

Additional observations from a re-analysis of the deposited data

How the results depend on the processing

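With no normalization between arrays, 2492 probes were called (1163 higher in PYS2 cells and 1329 in XEN cells) and 1559 genes (779 and 780), and 186 list members. At an adjusted p under 0.01, 4056 probes were called, 1987 of them higher in XEN cells, and 1151 genes were higher in XEN cells. The authors' log2 values gave 650 genes at least 2-fold apart (321 higher in PYS2 cells and 329 in XEN cells), with 1485 of the 1505 genes still called. Counts of called genes in a list and direction are small, and 50 of 78 moved by over 1.5 times under some setting, 38 of them with no normalization between arrays, 21 at an adjusted p under 0.01 and 16 with no filter on dim probes. With no normalization, receptors higher in PYS2 cells went from 13 to 4 and collagen enzymes higher in XEN cells from 7 to 2. With no filter on dim probes, endoderm transcription factors higher in XEN cells went from 4 to 1 and genes of the marker panel higher in XEN cells from 7 to 4. The cause was not tested.

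With 1 array left out, 4879 to 5462 probes were called (2490 to 2794 higher in PYS2 cells and 2350 to 2668 in XEN cells) and 3002 to 3356 genes (1632 to 1774 and 1370 to 1582). Genes at least 2-fold apart numbered 1415 to 1582 (741 to 839 and 674 to 743), called list members 271 to 304, and all 40 leading genes were called each time. The replicate numbers did not pair the samples, since deviations from the group means correlated at 0.00404, 0.248 and -0.131 between arrays of the same number, and with a replicate block 3691 genes were called, 3586 of them called without it. Between 50.0% and 55.1% of called genes were higher in PYS2 cells under all settings.

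Of 216 genes with values here, 173 kept their call or lack of one under every alternative, and 170 of these also kept their sign. The other 3, Foxa2, Pdgfra and Sparc, were not called and changed sign. H2-K1 reversed from -2.77 to 1.63 with the authors' values, 0.54 with the mean of its probes, and 3.78, 3.95 and 3.78 without XEN replicate 1, 2 and 3 (-2.91 to 3.95 over all arrays left out), because its probes went opposite ways. With the authors' values, Bmp4, Chrd, Col6a1, Gpc3, Krt7, Lrp6, Mmp14, Myc, Pltp and Rpl14 were not called. Genes near background on the arrays of one line allow only a bound, and dim genes were less precise.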

Other observations

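Several probes were tested for 2993 genes, and 39 of these had probes called in both directions. Of the tested probes, 1868 had no gene name and were counted only among probes.

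Chromosomal blocks other than those above also leaned one way. On chromosome 12, the block of 69 tested genes from Itpk1 to Sp8 had 47.8% of its genes higher in XEN cells, with a median difference of -0.51, and the first block, from Rab10 to Sptssa, had 34.3% higher in XEN cells and 4.29% higher in PYS2 cells. On chromosome 14, the block from Chmp7 to Tmtc4 had 56.6% of 76 genes higher in XEN cells, and the block before it, from Pabpn1 to R3hcc1, had 50.6% of 77 genes higher in PYS2 cells. On chromosome 1, all 4 blocks leaned toward PYS2 cells, with medians from 0.12 to 0.37. These are values without a test.

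Genes of muscle were tested for 4 of 17 on the array, and 3 were higher in XEN cells and 1 in PYS2 cells. The ryanodine receptor Ryr2 (at least 4.49-fold), Nppb, a natriuretic peptide (12.3-fold), and the skeletal actin Acta1 (at least 1.57-fold) were higher in XEN cells. The troponin Tnnc1 was 2.03-fold higher in PYS2 cells (adjusted p = 0.0116), and was not called without PYS2 replicate 3 (adjusted p = 0.0556). Of 34 Hox genes on the array, 27 were detected on no array of either line, and Hoxa7 was detected in PYS2 cells only (at least 2.84-fold).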
